A study of Mus musculus with 13 samples.

Results

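The genes described here make, sense, move and store cholesterol in mouse small intestine. A list of 29 genes was matched by symbol to the gene tables, and 29 of 29 were found among 24054 genes. They were ordered into 4 roles, which are 7 enzymes of the mevalonate part, 11 enzymes of the squalene and sterol part, 5 sensing genes, and 6 transport and storage genes. RNA-seq was deposited for 13 libraries in 6 groups, made to compare loss of the Wnt pathway inhibitor Apc in different cell types and settings. All groups came from mice given 2 doses of 1 mg tamoxifen. The organoids, which are cultured epithelial structures grown from ileal crypts, were collected whole, with 10 days given as their time in the labels. Sec-Cre organoids carried Atoh1CreERT2, Apc fl/fl and Rosa26tdTomato (n = 2), ISC-Cre organoids carried Lgr5eGFP-CreERT2, Apc fl/fl and Rosa26tdTomato (n = 2), and WT organoids were labelled only as WT (n = 2). The other groups were primary intestinal stem cells (ISCs) obtained by cell sorting, and the marker used for the sort is not given in the sources used here. Sec-Cre ileal ISCs carried Atoh1CreERT2, Apc fl/fl, Lgr5DTR-GFP and Rosa26tdTomato and were taken at 21 days (n = 2). WT ileal ISCs carried Apc fl/fl, Lgr5DTR-GFP and Rosa26tdTomato with no Cre, also at 21 days (n = 2). ISC-Cre duodenal ISCs carried Lgr5eGFP-CreERT2, Apc fl/fl and Rosa26tdTomato and were taken at 14 days (n = 3). Regions are those of the sample labels, whereas the extraction protocol names the duodenum for all samples. The animals are labelled adult. Atoh1 drives the Cre in the secretory lineage, while Lgr5 drives it in stem cells. No label says that replicates came from separate animals, so a p-value here reflects only how far these samples differ, and that spread may be technical.

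Cholesterol is built from acetyl-CoA through mevalonate and isoprenoids to squalene, which is then closed into a ring and trimmed to cholesterol. When sterols are low in the endoplasmic reticulum, SCAP escorts the SREBP transcription factors to the Golgi, where they are cut and released to switch on the synthesis genes; INSIG proteins hold this complex back when sterols are plentiful. In absorptive enterocytes NPC1L1 takes up cholesterol from the gut lumen, SOAT2 esterifies it for storage and export, ABCG5 with ABCG8 pumps sterols back to the lumen, and ABCA1 loads cholesterol onto lipoproteins at the basal side.

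SREBP binds the sterol regulatory element. The Hmgcs1 promoter is shown because it alone, among the genes with a window, held the form of this element searched here. Hmgcs1 was lower in both kinds of Apc-null organoid. Lss, Mvd and Cyp51 fell further there, and their windows held no match. The promoter of the regulator gene Srebf2, which did not pass the test there, is shown as well. Both promoters lie before the RefSeq start site on the + strand of GRCm38.p6, Hmgcs1 at chr13:119690101-119690350 and Srebf2 at chr15:82147019-82147180. The Hmgcs1 bases run up to that start, while those of Srebf2 stop where the GENCODE gene begins, so the last 88 bases before its RefSeq start are not shown. Capitals mark matches, on either strand, to the element TCACNCCAC or to the CCAAT box.
Hmgcs1: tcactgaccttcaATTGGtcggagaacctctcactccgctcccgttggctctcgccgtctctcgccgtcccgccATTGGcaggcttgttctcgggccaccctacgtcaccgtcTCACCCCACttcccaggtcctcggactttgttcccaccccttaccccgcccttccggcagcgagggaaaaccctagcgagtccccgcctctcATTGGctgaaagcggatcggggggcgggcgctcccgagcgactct
Srebf2: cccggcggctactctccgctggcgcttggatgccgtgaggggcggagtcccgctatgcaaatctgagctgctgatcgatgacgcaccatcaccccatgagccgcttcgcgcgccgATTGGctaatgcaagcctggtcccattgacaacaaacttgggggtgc
RefSeq windows of 300 bases around the start were found for 24 of the 29 genes, all but Fdps, Fdft1, Sqle, Stard4 and Soat2. The element TCACNCCAC, searched on both strands, was in 1 of the 24 (4.17%), Hmgcs1, at position -137 from the start, against 1.44% of 27025 genes. The CCAAT box, searched on both strands and not overlapping that element in the bases shown, was in 21 of the 24 (87.5%), against 41.1% of genes. A shorter form of the element, TCACNCCA, was chosen after the Srebf2 sequence had been seen and is contained in the longer one. It was in 3 of the 24 (12.5%), which are Hmgcs1, Msmo1 and Srebf2, against 4.97% of genes. In these shares a gene counted if any of its windows matched. The 24 genes had 33 windows and the 27025 genes had 32851, so the windows per gene differed. The 27025 genes also include genes that were not tested here. A match describes letters only, and no binding was measured.

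Total gene counts ran from 11524335 to 45516228 per library. Levels are given as CPM, read counts scaled to a common library size, on sizes scaled by the trimmed mean of M values (TMM). Apc itself lay between 139 and 156 CPM in WT organoids against between 185 and 243 CPM in Apc-null organoids. It was 114 to 124 CPM in WT ileal ISCs, 48.2 to 107 CPM in Sec-Cre ileal ISCs and 165 to 453 CPM in duodenal ISCs. Counts over the whole gene do not show whether its floxed part was removed, so they check no label. Both Sec-Cre ileal ISC libraries stood apart. They had 57.0% and 35.8% unmapped reads, against 13.9% or less elsewhere, and a TMM factor of 0.352 and 0.875. Paneth cell markers summed to 705283 CPM in replicate 1 and 9640 CPM in replicate 2, against 18637 to 20587 CPM in WT ileal ISCs, where CPM on scaled sizes need not add up to the same total in each library. All 6 stem cell markers were detected in every group, with sums of 1125 to 2069 CPM in Sec-Cre ileal ISCs and 5170 to 5420 CPM in WT ileal ISCs. Of these markers Axin2 and Slc12a2 were lower in Sec-Cre than in WT ileal ISCs. Axin2 is a target of the Wnt pathway that Apc restrains. It had 822 and 789 CPM in Sec-Cre organoids and 782 and 817 CPM in ISC-Cre organoids, above the 222 and 393 CPM of WT organoids. It had 770.4, 679 and 734 CPM in duodenal ISC-Cre ISCs, 330 and 285 CPM in WT ileal ISCs, but 79.0 and 37.8 CPM in the ileal ISC libraries labelled Sec-Cre Apc-null (log2 fold change against WT -2.40 ± 0.41, adjusted p = 0.00785). In these 2 libraries Axin2 thus went the other way from the remaining Apc-null groups and against their label. Enterocyte markers summed to 51603 and 26569 CPM there, against 903 to 934 CPM in WT ileal ISCs, and 12 of 12 were higher. These markers go against the stem cell part of the label too, although 4 of the 6 stem cell markers did not pass. "Sec-Cre ileal ISCs" thus names these libraries by label only, for genotype and for cell type. The duodenal libraries had 98.5% to 98.9% of stranded counts on 1 strand, whereas the other 10 were near an even split. The duodenal libraries also differed from the ileal groups in region, time and dissociation enzyme, which cannot be told apart from genotype. Rn45s took 5.26% of gene counts in duodenal replicate 3, against 0.380% and 0.271% in duodenal replicates 1 and 2.

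**Figure D1:**
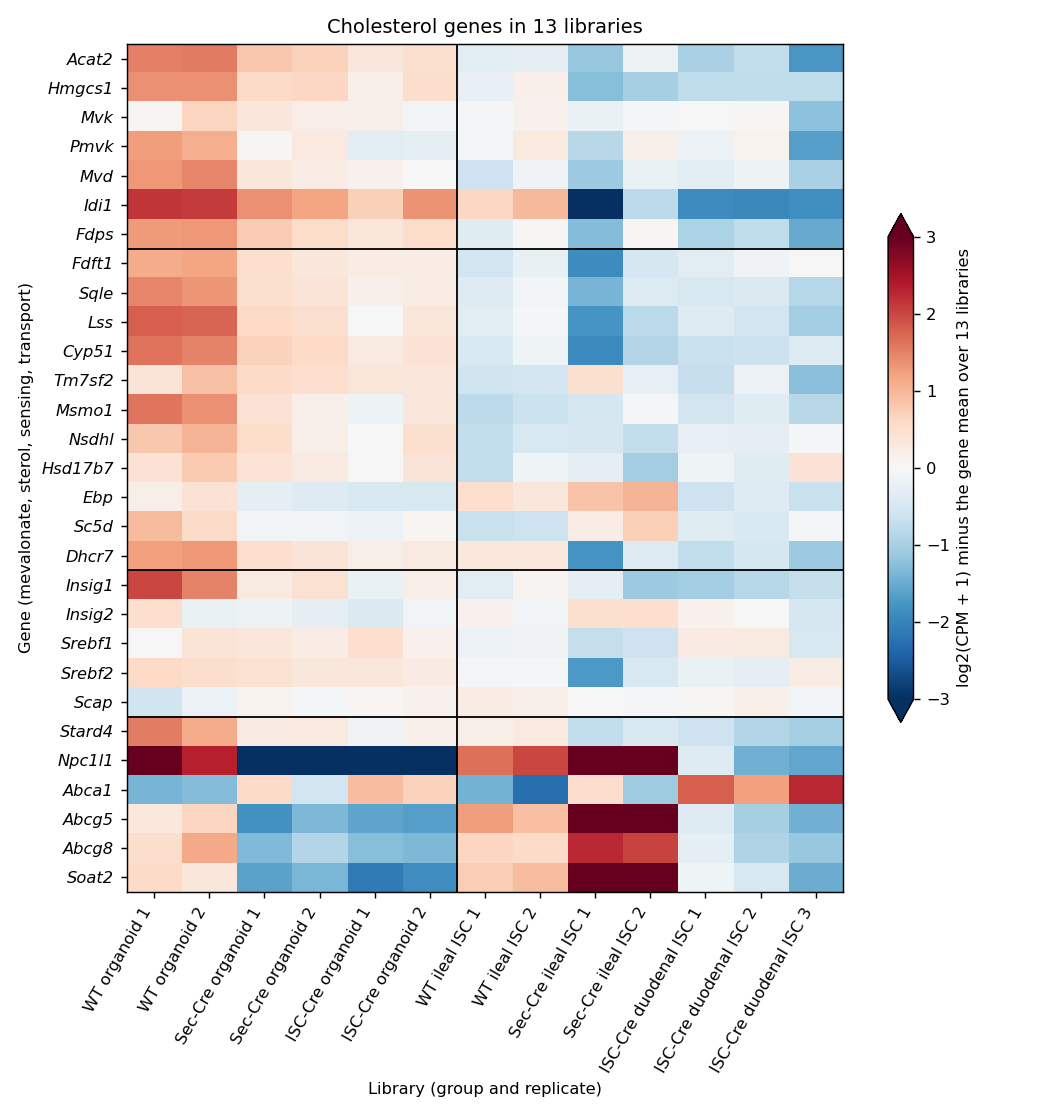
Level of each of the 29 genes (vertical axis, by role) in each of the 13 libraries (horizontal axis), as log2(CPM + 1) minus the gene's mean over the libraries. The 2 WT organoid libraries are the highest for most synthesis enzymes, and Npc1l1, Abcg5, Abcg8 and Soat2 are highest in the 2 Sec-Cre ileal ISC libraries.

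By level per length, a synthesis gene came first in WT organoids, and transport genes came first in the libraries labelled Sec-Cre ileal ISCs. To compare genes with each other, levels were divided by the length of the merged exons (CPM per kb, mean ± SD). In WT organoids Hmgcs1, which makes HMG-CoA, was the highest at 146 ± 0.493 CPM per kb (n = 2), followed by the sterol sensor Insig1 at 121 ± 30.8 CPM per kb and the demethylase gene Cyp51 at 108 ± 7.81 CPM per kb. Insig1 lay within its SD of both neighbours. In WT ileal ISCs Hmgcs1 was again first at 55.4 ± 11.1 CPM per kb (n = 2), ahead of Srebf2 at 40.3 ± 0.263 CPM per kb and the sterol isomerase gene Ebp at 34.8 ± 3.05 CPM per kb. In Sec-Cre ileal ISCs the order was led by Npc1l1 at 115 ± 10.1 CPM per kb (n = 2), Soat2 at 103 ± 14.4 CPM per kb and Abcg5 at 88.1 ± 0.0117 CPM per kb, where Npc1l1 and Soat2 lay within 1 SD of each other. Duodenal ISCs had Srebf2 first at 39.9 ± 7.79 CPM per kb (n = 3) and Hmgcs1 next at 33.4 ± 0.162 CPM per kb. The lipid exporter gene Abca1 was the lowest of the 29 in both WT groups, at 0.982 ± 0.0546 CPM per kb in organoids and 0.703 ± 0.324 CPM per kb in ileal ISCs.

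The first comparison asked how the genes differed between Sec-Cre Apc-null and WT organoids. Of the 29 genes, 20 were lower and 1 was higher at an adjusted p under 0.05 in edgeR's quasi-likelihood test, and 8 did not pass. Over all 14208 genes tested, 33% were called, 16.7% higher and 16.3% lower. The median log2 fold change was -0.88 for the 29 genes and 0.05 for all genes. Both materials are bulk samples, in which fewer cells of a type and less RNA per cell cannot be told apart.

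In the mevalonate part 6 of 7 enzymes fell. Mvd, the decarboxylase that yields isopentenyl diphosphate, had 137 and 154 CPM in the WT organoids and 69.4 and 64.1 CPM in the Sec-Cre organoids. The groups did not overlap, and the log2 fold change was -1.17 ± 0.13 (SE, adjusted p = 0.000796). Here and below, overlap only describes the printed levels of genes that were mostly picked by adjusted p. The share of all genes without overlap was not counted, so a lack of overlap adds no support to the tests. Acat2, the thiolase that makes acetoacetyl-CoA, had 198 and 208 CPM in WT against 122 and 113 CPM in Sec-Cre organoids, a log2 fold change of -0.84 ± 0.12 (adjusted p = 0.00186). Its counts are uncertain, because 43.8% of its 31-base words also occur in transcripts of other genes. Hmgcs1, the HMG-CoA synthase gene, had 670.2 and 673 CPM in WT against 389.8 and 399 CPM in Sec-Cre organoids and also passed. The kinase gene Pmvk, the isomerase gene Idi1 and the farnesyl diphosphate synthase gene Fdps were the other 3 that fell. Counts of Fdps are uncertain too, with 27.9% of its words shared and 26.7% of its exon bases overlapping another gene. Idi1 and Fdps did not pass without Sec-Cre replicate 2 (adjusted p = 0.0786 and 0.0826). Mevalonate kinase, Mvk, had 41.8 and 62.9 CPM in WT against 51.0 and 45.8 CPM in Sec-Cre organoids, and these overlapped.

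Among the 11 enzymes of the squalene and sterol part, 8 fell. Lss, which closes squalene epoxide into lanosterol, had 181 and 174 CPM in WT organoids against 77.1 and 71.4 CPM in Sec-Cre organoids. Its log2 fold change of -1.31 ± 0.15 (adjusted p = 0.000704) was the lowest of the 18 enzymes. Squalene epoxidase, Sqle, went from 363 and 326 CPM in WT to 184 and 172 CPM in Sec-Cre organoids, a log2 fold change of -1.01 ± 0.12 (adjusted p = 0.000966). Cyp51, the lanosterol demethylase gene, had 499 and 451 CPM in WT against 259 and 242 CPM in Sec-Cre organoids (log2 fold change -0.98 ± 0.13, adjusted p = 0.00129). None of these 3 genes overlapped between the groups. Dhcr7, which carries out the last reduction to cholesterol, had 152 and 160 CPM in WT against 91.9 and 84.6 CPM in Sec-Cre organoids, a log2 fold change of -0.88 ± 0.12 (adjusted p = 0.00156). The squalene synthase gene Fdft1, the methyl oxidase gene Msmo1, Ebp and the desaturase gene Sc5d completed the 8. Ebp did not pass without Sec-Cre replicate 1 or 2 (adjusted p = 0.0576 and 0.0938). The enzymes Nsdhl, Hsd17b7 and Tm7sf2 did not pass. Nsdhl, a dehydrogenase of the demethylation steps, had 101 and 116 CPM in WT against 84.2 and 64.0 CPM in Sec-Cre organoids.

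Of the 5 sensing genes 1 fell and 4 did not pass. Insig1, itself a sterol-responsive gene whose product retains SCAP, had 442 and 307 CPM in WT organoids against 132 and 151 CPM in Sec-Cre organoids, without overlap. Srebf2, the SREBP gene most tied to cholesterol synthesis, had 454 and 431 CPM in WT against 412 and 375 CPM in Sec-Cre organoids, and it did not pass. Srebf1 had 169 and 224 CPM in WT against 216 and 200.1 CPM in Sec-Cre organoids, which overlapped. The mRNAs of Scap and Insig2 did not pass either.

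All 6 transport and storage genes passed, 5 lower and 1 higher. Npc1l1, the uptake transporter gene, had 282 and 150.3 CPM in WT organoids but 1.60 and 2.44 CPM in Sec-Cre organoids, from 38 and 62 reads. This was a 110-fold lower level (log2 fold change -6.78 ± 0.39, adjusted p = 4.85e-05). Soat2, the cholesterol esterification gene, had 34.7 and 29.8 CPM in WT against 7.01 and 8.28 CPM in Sec-Cre organoids, a log2 fold change of -2.13 ± 0.23 (adjusted p = 0.000597). Both sterol efflux genes fell. Abcg5 had 34.9 and 44.2 CPM in WT against 7.13 and 10.3 CPM in Sec-Cre organoids (log2 fold change -2.23 ± 0.25, adjusted p = 0.000697). Abcg8 had 45.6 and 70.0 CPM in WT against 11.9 and 16.7 CPM in Sec-Cre organoids (log2 fold change -2.06 ± 0.26, adjusted p = 0.00123). Abcg5 and Abcg8 are divergent neighbours on chromosome 17 that overlap over 3.02% and 2.19% of their exon bases. Stard4, a cytosolic sterol carrier gene, was lower as well, while Abca1 was the gene that rose, from 9.77 and 10.6 CPM in WT to 41.4 and 17.9 CPM in Sec-Cre organoids. Abca1 no longer passed without Sec-Cre replicate 1 (adjusted p = 0.0896) and without WT replicate 1 or 2 (0.0688 and 0.0539). Enterocyte markers moved with these genes: 12 of 12 fell, and their summed level was 2445 to 3849 CPM in WT against 125 to 149 CPM in Sec-Cre organoids, with Apoa4 and Apoc3 at 0. Goblet cell markers were lower in 5 of 6 cases, with sums of 4130 to 4434 CPM in WT against 447 to 475 CPM in Sec-Cre organoids. Of 8 tested Paneth markers 6 were lower and 1 was higher, and general epithelial markers were lower in 3 of 5 cases. Of the 6 stem cell markers 2 were lower, Olfm4 (log2 fold change -4.90 ± 0.64) and Slc12a2, and 2 were higher, Axin2 and Ascl2. The part of these cell types in the levels of the 29 genes was not tested.

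**Figure D2:**
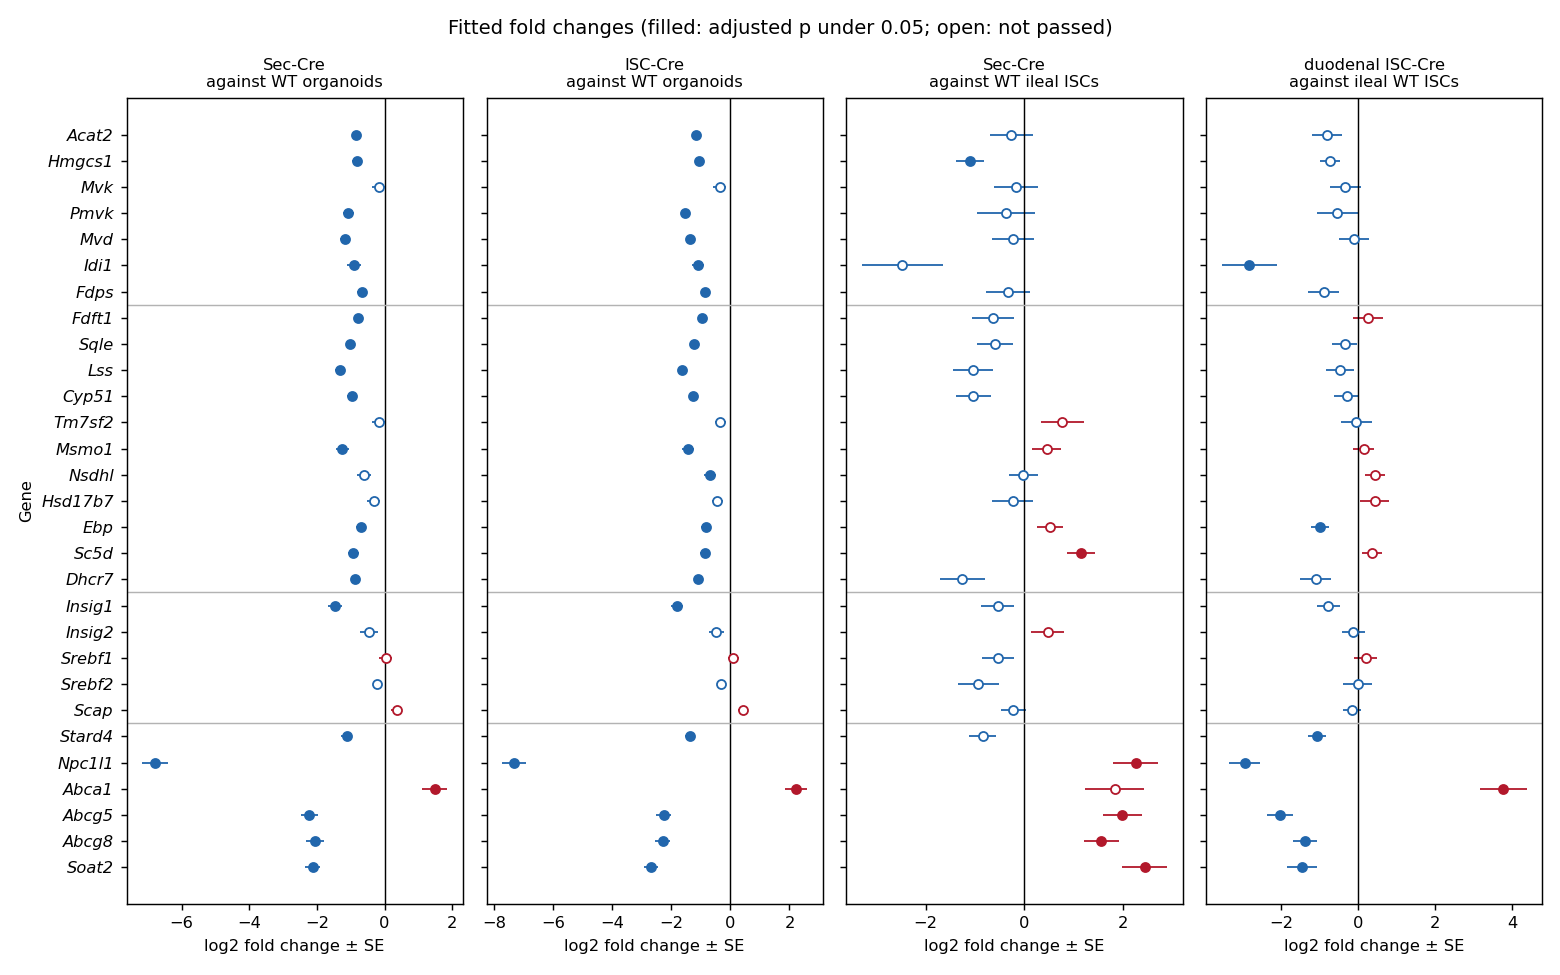
Fitted log2 fold change ± SE (horizontal axes, each panel with its own scale) of the 29 genes (vertical axis, by role) in 4 comparisons; filled points passed an adjusted p of 0.05 and open points did not. Synthesis enzymes lie left of 0 in both organoid panels, and Npc1l1, Abcg5, Abcg8 and Soat2 lie right of 0 in Sec-Cre ileal ISCs and left of 0 in the other panels.

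Genes outside the 29 that serve the same pathway were counted from 3 lists. Of 11 tested side branch and helper genes, 7 fell in Sec-Cre organoids. By smallest adjusted p, the order used to name genes of these lists throughout, the first were the lipid-binding gene Sec14l2 (log2 fold change -1.86 ± 0.23), Tmem97 (-0.93 ± 0.12) and the electron donor gene Por (-1.09 ± 0.19). Of 18 sterol sensing, lysosomal and membrane transport genes, 2 rose and 3 fell. The lipid exporter gene Abcg1 rose by 4.34 ± 0.56 on the log2 scale, from 0.3 to 0.8 CPM in WT to 9.5 to 13.5 CPM in Sec-Cre organoids; Gramd1a rose and the esterification gene Soat1 fell. Of 16 fatty acid synthesis genes, many of them SREBP targets, 10 fell and none rose. Acss2, the acetyl-CoA synthetase gene, fell by 2.81 on the log2 scale (SE 0.13), Gpam by 1.24 (SE 0.16) and Slc25a1 by 1.14 (SE 0.17).

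ISC-Cre Apc-null organoids were compared with the same 2 WT libraries, so both comparisons share their controls and are set side by side. Here 21 of the 29 genes were lower and 1 was higher, against 37.8% of all 14208 genes called, 19.3% higher and 18.5% lower. The median log2 fold change was -1.09 for the 29 genes and 0.03 for all genes. Again 6 of 7 mevalonate enzymes fell, and 9 of 11 squalene and sterol enzymes fell, the additional one being Nsdhl. Summed over the 18 enzymes, the level was 3812 ± 35.9 CPM in WT organoids, 2162 ± 117 CPM in Sec-Cre organoids and 1846 ± 198 CPM in ISC-Cre organoids (mean ± SD, n = 2 each). The plot of summed levels shows no overlap between WT and either Apc-null group.

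Lss had 51.1 and 65.7 CPM in the ISC-Cre organoids, a log2 fold change of -1.64 ± 0.15 against WT (adjusted p = 0.000228). The phosphomevalonate kinase gene Pmvk had 77.0 and 68.5 CPM in WT against 25.4 and 26.3 CPM in ISC-Cre organoids, without overlap (log2 fold change -1.53 ± 0.16, adjusted p = 0.000482). Mvd had 60.5 and 54.7 CPM (log2 fold change -1.37 ± 0.14, adjusted p = 0.000358). Each of these 3 genes lay below both WT libraries. Sqle had 146 and 152 CPM in ISC-Cre organoids (log2 fold change -1.25 ± 0.12, adjusted p = 0.000336). Cyp51 had 192 and 216 CPM (log2 fold change -1.25 ± 0.13, adjusted p = 0.000382). The remaining enzymes with the smallest adjusted p were Acat2 and Dhcr7, with log2 fold changes of -1.17 ± 0.12 and -1.09 ± 0.12. Nsdhl had 56.2 and 80.2 CPM, and it no longer passed without ISC-Cre replicate 1 (adjusted p = 0.168) or WT replicate 2 (0.0925).

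Insig1 was the sensing gene that fell, with 94.9 and 126 CPM in ISC-Cre organoids. Srebf2 had 379 and 351 CPM, below both WT libraries, and did not pass (adjusted p = 0.0868). All 6 transport and storage genes passed in the same directions as above. Npc1l1 had 1.32 and 1.43 CPM from 33 and 30 reads, a 161-fold lower level than in WT (log2 fold change -7.33 ± 0.41, adjusted p = 3.89e-05). Soat2 had 4.56 and 5.61 CPM (log2 fold change -2.70 ± 0.24, adjusted p = 0.000202). Abcg5 had 8.68 and 8.18 CPM (log2 fold change -2.26 ± 0.25, adjusted p = 0.000554). Abca1, with 53.1 and 44.6 CPM, rose above both WT libraries. Enterocyte markers again fell in 12 of 12 cases, to a sum of 119 to 120.4 CPM. Goblet markers were lower in 5 of 6 cases, with sums of 423 to 653 CPM, epithelial markers in 4 of 5, and Paneth markers were lower in 3 and higher in 1 of 8. Of the 6 stem cell markers 3 were lower (Slc12a2, Olfm4 and Lgr5) and 2 were higher (Axin2 and Ascl2). The part of these cell types was not tested. In the other lists 8 of 11 helper genes fell, first by adjusted p Tmem97, Sec14l2 and the prenyl transferase gene Pdss1; 4 of 18 sensing and transport genes rose and 3 fell, first Abcg1 (log2 fold change 4.88 ± 0.57), Soat1 and Nr1h3; and 9 of 16 fatty acid genes fell, first Acss2 (-3.41 ± 0.13), Gpam and Slc25a1.

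**Figure D3:**
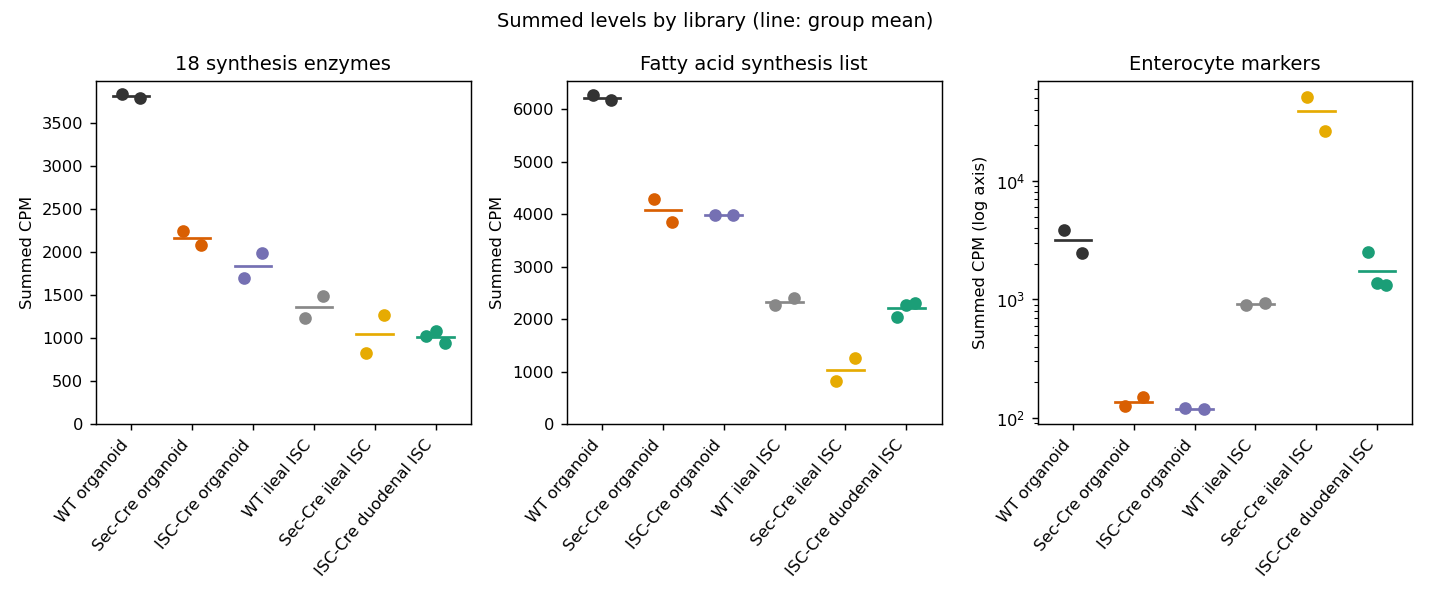
Summed CPM per library (points) and group mean (line) for the 18 synthesis enzymes, the fatty acid synthesis list and the enterocyte markers (log axis). The 18 enzymes sum to 3812 CPM on average in WT organoids and to 2162 and 1846 CPM in Sec-Cre and ISC-Cre organoids.

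Set against each other, Sec-Cre and ISC-Cre organoids gave 0 calls among the 29 genes in edgeR, against 0.0422% of all 14208 genes. At an unadjusted p under 0.05 there were 3 such genes, against 719 of all 14208. DESeq2 also called 0, against 0.507% of all genes. The log2 differences ran from -0.74 for Abca1 to 0.57 for Soat2 with a median of 0.19. Of the 29 genes 25 were on the side of higher levels in Sec-Cre organoids, against 7136 of all 14208. Acat2 had 122 and 113 CPM in Sec-Cre against 88.0 and 97.2 CPM in ISC-Cre organoids, a log2 difference of 0.32 ± 0.12. A p that misses the threshold does not show that both kinds of Apc-null organoid had the same levels.

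In cells labelled as sorted ileal stem cells, the Sec-Cre Apc-null libraries were compared with WT. In the Sec-Cre libraries Axin2 went against the genotype label and enterocyte markers against the stem cell label. Of the 29 genes, 5 were higher and 1 was lower, against 16.6% of all 14577 genes called, 9.62% higher and 6.96% lower. The median log2 fold change was -0.24 for the 29 genes and 0.00 for all genes. Soat2, Abcg5, Npc1l1 and Abcg8, 4 of the 6 transport and storage genes, were higher. Of the 18 enzymes, 1 rose (Sc5d) and 1 fell (Hmgcs1), and no sensing gene was called, with Srebf2 the nearest at an adjusted p of 0.152.

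Soat2 had 39.3 and 44.6 CPM in WT ileal ISCs against 206 and 251 CPM in Sec-Cre ileal ISCs. The groups did not overlap, and the log2 fold change was 2.44 ± 0.46 (adjusted p = 0.0107). Npc1l1 had 94.2 and 120.3 CPM in WT against 482 and 546 CPM in Sec-Cre ileal ISCs, a 4.79-fold higher level (log2 fold change 2.26 ± 0.45, adjusted p = 0.0139). Abcg5 had 67.6 and 52.8 CPM in WT against 239 CPM in both Sec-Cre libraries (log2 fold change 1.99 ± 0.39, adjusted p = 0.0129). Abcg8 had 49.3 and 47.3 CPM in WT against 154 and 131 CPM in Sec-Cre ileal ISCs (log2 fold change 1.56 ± 0.35, adjusted p = 0.0214). All 4 genes were above both WT libraries in each library labelled Sec-Cre, as the plot of transport genes by library shows. Abca1 had 9.66 and 4.91 CPM in WT against 40.1 and 12.6 CPM in Sec-Cre ileal ISCs, and did not pass (adjusted p = 0.0684). Stard4 had 159.6 and 172 CPM in WT against 83.7 and 102 CPM in Sec-Cre ileal ISCs, and did not pass either (adjusted p = 0.0677). The 12 enterocyte markers moved with the transport genes, with 12 of 12 higher and sums of 903 to 934 CPM in WT against 26569 to 51603 CPM in Sec-Cre ileal ISCs. The stem cell markers Axin2 (above) and Slc12a2, at 1440 and 1214 CPM in WT against 478 and 448 CPM in Sec-Cre ileal ISCs, were lower (Slc12a2 log2 fold change -1.52 ± 0.38, adjusted p = 0.0305). Of the other markers 1 of 9 Paneth genes was higher, 1 of 6 goblet genes was lower and 1 of 5 immune genes was higher. This immune gene was Cd3e, at 0.0619 and 0 CPM in WT against 3.20 and 2.99 CPM in Sec-Cre ileal ISCs. The part of any of these in the transport result was not tested.

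**Figure D4:**
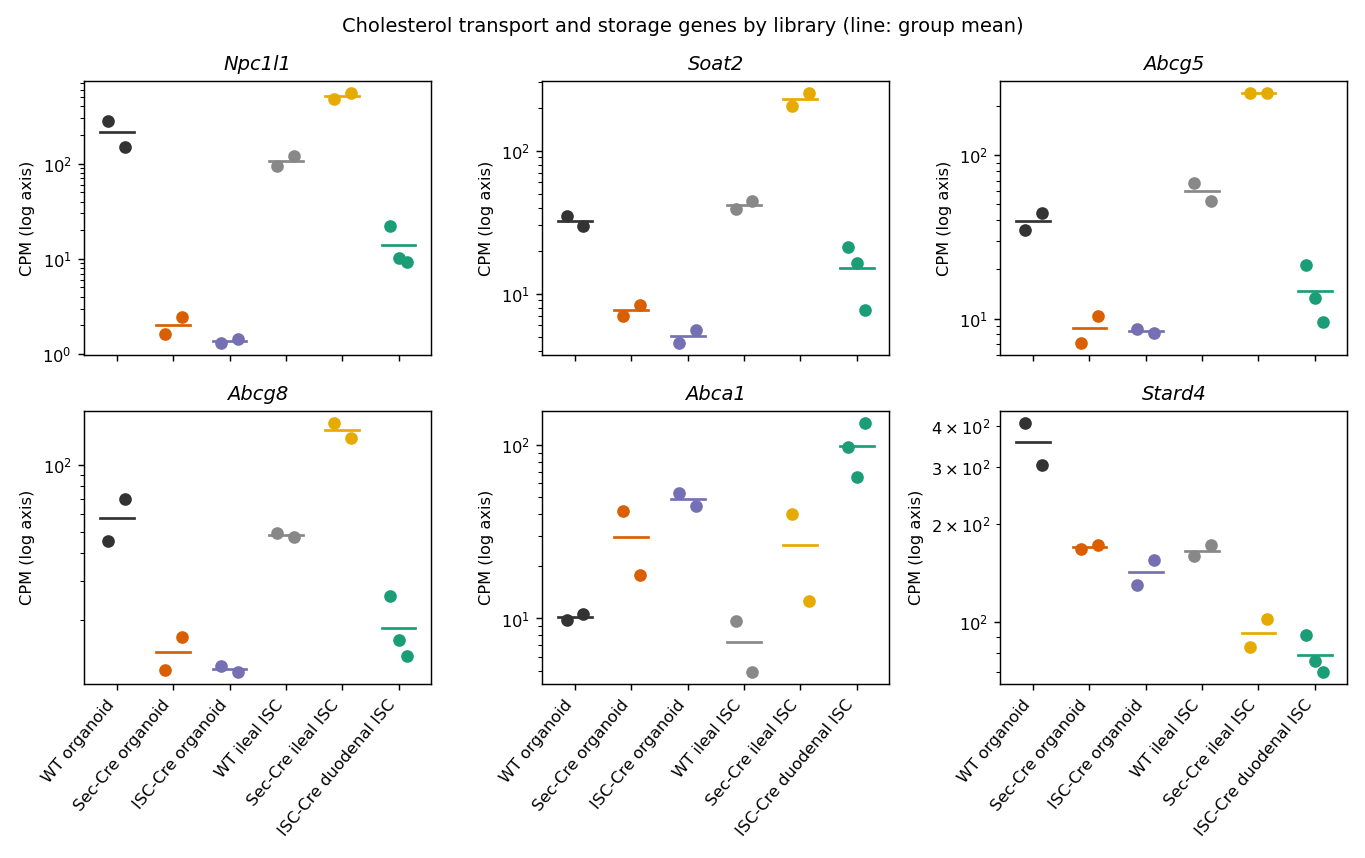
CPM per library (points, log axes) and group mean (line) of the 6 transport and storage genes in the 6 groups. For Npc1l1, the 2 Sec-Cre ileal ISC libraries sit at 482 and 546 CPM and the 4 Apc-null organoid libraries between 1.32 and 2.44 CPM.

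Hmgcs1 had 219 and 290.4 CPM in WT against 107 and 131 CPM in Sec-Cre ileal ISCs, a log2 fold change of -1.10 ± 0.28 (adjusted p = 0.0326). Sc5d had 51.3 and 52.5 CPM in WT against 95.5 and 134 CPM in Sec-Cre ileal ISCs, a log2 fold change of 1.14 ± 0.29 (adjusted p = 0.0301). Neither gene overlapped between the groups. Idi1 varied within Sec-Cre ileal ISCs, at 1.48 CPM in replicate 1 and 21.4 CPM in replicate 2, against 58.1 and 75.5 CPM in WT, and did not pass. Summed over the 18 enzymes, the level was 1367 ± 181 CPM in WT against 1052 ± 306 CPM in Sec-Cre ileal ISCs. Without Sec-Cre replicate 1, the library richest in Paneth markers, log2 fold changes were 2.55 for Soat2, 2.32 for Npc1l1, 1.96 for Abcg5 and 1.42 for Abcg8, and these 4 still passed, whereas Hmgcs1 did not (adjusted p = 0.0614). Sc5d did not pass without Sec-Cre replicate 2 (adjusted p = 0.0608). The duodenal libraries share the fit, and without duodenal replicate 1 or 2 neither Hmgcs1 (0.0708 and 0.0618) nor Sc5d (0.0654 and 0.0531) passed. Without Sec-Cre replicate 2 the count was 13, with 5 higher and 8 lower, against 21.1% of all genes. Without WT replicate 1 or WT replicate 2 it was 0, with adjusted p from 0.0860 to 0.237 for the 6 genes, while the share of all genes called was then 1.76% and 0.996%. The log2 fold changes in these 2 fits were 2.35 and 2.54 for Soat2 and 2.09 and 2.45 for Npc1l1. Of the other lists, 2 of 11 helper genes rose (Cyb5r3 and Por) and 1 fell (Lbr), and 3 of 18 sensing and transport genes rose, first the lysosomal lipase gene Lipa (log2 fold change 2.77 ± 0.46). In the fatty acid list 5 of 16 fell and none rose, first the desaturase gene Scd2 (-3.18 ± 0.38), Acaca (-2.74 ± 0.34) and Acly (-2.04 ± 0.36).

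The difference between the Sec-Cre effects in organoids and in ileal ISCs was tested as an interaction over all 13 libraries, with the ileal ISCs labelled Sec-Cre taken as labelled although Axin2 went against that label there. It passed for 7 of the 29 genes, all with the more negative change in organoids, against 26.4% of all 15208 genes, 13.4% positive and 13% negative. The difference in log2 fold change was -8.99 ± 0.67 for Npc1l1 (adjusted p = 8.23e-06), -4.52 ± 0.54 for Soat2 (0.000137), -4.17 ± 0.49 for Abcg5 (0.00012) and -3.58 ± 0.46 for Abcg8 (0.000217). The enzymes Sc5d (-2.02 ± 0.34), Msmo1 (-1.66 ± 0.37) and Ebp (-1.18 ± 0.29) were the others. Msmo1 had 62.9 and 68.9 CPM in WT ileal ISCs against 75.6 and 105 CPM in Sec-Cre ileal ISCs, but 334 and 283 CPM in WT organoids against 147 and 121 CPM in Sec-Cre organoids. Ebp had 85.4 and 75.5 CPM in WT ileal ISCs, 109 and 122 CPM in Sec-Cre ileal ISCs, 67.4 and 80.8 CPM in WT organoids, and 49.0 and 45.4 CPM in Sec-Cre organoids. For Hmgcs1 the difference was 0.33 ± 0.32 and did not pass. Enterocyte markers differed in the same direction in 12 of 12 cases, Paneth markers in 6 of 9 and goblet markers in 4 of 6. Of the 6 stem cell markers Olfm4 differed in the same direction, Axin2 in the opposite one (3.80 ± 0.51), and 4 did not pass. The part of these markers was not tested. Of the other lists 5 of 11 helper genes, 4 of 18 sensing and transport genes and 7 of 16 fatty acid genes passed, with the smallest adjusted p for Cyb5r3 (-3.26 ± 0.33), Abcg1 (5.32 ± 1.05) and Acaca (2.34 ± 0.35).

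Against WT ileal ISCs, ISC-Cre duodenal ISCs had 7 of the 29 genes lower and 1 higher, where 19.1% of all 14577 genes were called, 10.2% higher and 8.84% lower. The median log2 fold change was -0.35 for the 29 genes and 0.07 for all genes. This comparison shares its WT libraries with the Sec-Cre comparison above. All 6 transport and storage genes passed, and 2 of 18 enzymes, Idi1 and Ebp, did.

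Npc1l1 had 22.1, 10.2 and 9.31 CPM in the duodenal ISCs, below 94.2 and 120.3 CPM in WT ileal ISCs, a 7.70-fold lower level (log2 fold change -2.94 ± 0.40, adjusted p = 0.00208). Abca1 had 97.9, 65.0 and 134 CPM in the duodenal ISCs, above both WT libraries (log2 fold change 3.77 ± 0.62, adjusted p = 0.00453). Abcg5 had 21.2, 13.4 and 9.55 CPM (log2 fold change -2.02 ± 0.34, adjusted p = 0.00535). None of these 3 genes overlapped between the groups. Abcg8 had 25.6, 16.2 and 13.7 CPM (log2 fold change -1.38 ± 0.31, adjusted p = 0.0175). Soat2 had 21.3, 16.5 and 7.66 CPM (log2 fold change -1.46 ± 0.39, adjusted p = 0.0337). The sterol carrier gene Stard4 had 91.1, 75.7 and 70.1 CPM (log2 fold change -1.07 ± 0.24, adjusted p = 0.0189). In the enzymes, Idi1 had 9.48, 9.12 and 9.74 CPM against 58.1 and 75.5 CPM in WT (log2 fold change -2.82 ± 0.72, adjusted p = 0.0284), and Ebp had 38.6, 45.4 and 37.2 CPM (-0.99 ± 0.23, adjusted p = 0.0213). The 8 calls became 3 without WT replicate 1 or WT replicate 2 and 4 without duodenal replicate 2; Npc1l1, Abca1 and Abcg5 passed in each of these. The share of all genes called was 7.53% and 6.1% without WT replicate 1 and WT replicate 2, and 10.2% without duodenal replicate 2. Idi1 also failed to pass without duodenal replicate 1 (adjusted p = 0.0832) or replicate 3 (0.0829), and Ebp without duodenal replicate 1 (0.0962). Enterocyte markers summed to 1331 to 2529 CPM in the duodenal ISCs, above the 903 to 934 CPM of WT ileal ISCs, with 4 of 12 higher. Goblet markers were lower in 5 of 6 cases, with sums of 491 to 914 CPM against 12769 to 14771 CPM in WT ileal ISCs, and the epithelial markers Cdx2, Vil1 and Krt8, 3 of 5, were lower. Of the 6 stem cell markers Lgr5 and Axin2 were higher and Olfm4 was lower. The immune marker Ptprc was lower and the stromal marker Pdgfra was higher. Stromal markers summed to 7.37 to 48.9 CPM in the duodenal ISCs against 0.495 to 0.709 CPM in WT ileal ISCs. The part of all these markers in the levels of the 29 genes was not tested. Of the other lists 1 of 11 helper genes rose (Por) and 4 fell, first by adjusted p Sec14l2 (log2 fold change -2.78 ± 0.31), 4 of 18 sensing and transport genes rose and 1 fell, first Scarb1 (3.65 ± 0.47), and 1 of 16 fatty acid genes rose (Scd1, 4.83 ± 0.87) and 4 fell.

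The 2 groups labelled as Apc-null stem cells were also compared directly. However, Axin2 was higher in the duodenal libraries by 3.65 ± 0.41 on the log2 scale (adjusted p = 0.000454). In duodenal ISC-Cre ISCs 6 of the 29 genes were lower and 1 was higher than in Sec-Cre ileal ISCs, against 40.8% of all 14577 genes, 21% higher and 19.8% lower. The median log2 fold change was -0.18 for the 29 genes and 0.12 for all genes. Log2 fold changes were -5.20 ± 0.44 for Npc1l1 (adjusted p = 0.000164), -4.01 ± 0.36 for Abcg5 (0.000195), -3.91 ± 0.41 for Soat2 (0.00034) and -2.94 ± 0.32 for Abcg8 (0.000373). The levels of these 4 genes, given above, did not overlap between the groups. Ebp and Sc5d were also lower and Abca1 was higher, with log2 fold changes of -1.51 ± 0.23, -0.78 ± 0.25 and 1.93 ± 0.56. Neither Abca1 nor Sc5d passed without Sec-Cre replicate 2 (adjusted p = 0.0977 and 0.161). Sc5d was also lost without WT ileal ISC replicate 1 (adjusted p = 0.0903), WT ileal ISC replicate 2 (0.0893), duodenal replicate 1 (0.123) or duodenal replicate 2 (0.113), and Abca1 without duodenal replicate 1 (0.0522) or duodenal replicate 3 (0.0714). All 12 enterocyte markers were lower in the duodenal libraries, with 6 of 9 Paneth, 5 of 6 goblet and 4 of 5 epithelial markers. Of the 6 stem cell markers 3 were higher there (Axin2, Lgr5 and Slc12a2) and 1 was lower (Olfm4). The part of these markers was not tested. Region, time, enzyme and Cre driver cannot be told apart here.

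Finally, WT organoids were set against WT ileal ISCs, which differ in culture, in holding all cells or sorted cells, in time (10 against 21 days) and in the stated alleles, which cannot be told apart. Of the 29 genes 12 were higher in organoids and 0 were lower, against 3.87% of all 15208 genes called, 1.98% higher and 1.89% lower. The median log2 fold change was 1.11 for the 29 genes and 0.00 for all genes. Of the 18 enzymes 10 were higher, 3 in the mevalonate part and 7 in the squalene and sterol part, together with Insig1 and Stard4. DESeq2 called 14 higher and 0 lower, against 7.85% of all genes in both directions. In edgeR 19 passed an unadjusted p under 0.05, counting both directions, against 2470 of all 15208 genes.

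Msmo1, a sterol methyl oxidase that acts after Cyp51, had 334 and 283 CPM in WT organoids against 62.9 and 68.9 CPM in WT ileal ISCs, a log2 fold change of 2.23 ± 0.27 (adjusted p = 0.000956). Insig1 had 442 and 307 CPM in organoids and 88.1 and 115 CPM in ISCs (log2 fold change 1.88 ± 0.31, adjusted p = 0.00559). Lss had 181 and 174 CPM in organoids and 40.6 and 48.8 CPM in ISCs (log2 fold change 1.99 ± 0.32, adjusted p = 0.00563). None of these genes overlapped. Cyp51 and Nsdhl followed with log2 fold changes of 1.85 ± 0.30 and 1.55 ± 0.25, and Hmgcs1 and Sc5d with 1.40 ± 0.23 and 1.44 ± 0.24. Sqle, Acat2, Mvd, Stard4 and Fdft1 had log2 fold changes of 1.63 ± 0.30, 1.86 ± 0.35, 1.75 ± 0.34, 1.11 ± 0.23 and 1.55 ± 0.35. The levels of Npc1l1, Abcg5, Abcg8 and Soat2 did not pass in this comparison, nor did that of Srebf2, which had 454 and 431 CPM in organoids and 288 and 291 CPM in ISCs. The 12 calls became 1 without WT ileal ISC replicate 1 and 5 without WT ileal ISC replicate 2 or WT organoid replicate 1, where the share of all genes called was 2.01%, 1.07% and 1.01%. Without WT organoid replicate 2 it was 9, against 2.22% of all genes, with Fdft1, Acat2 and Mvd not passing (adjusted p = 0.106, 0.0575 and 0.0690). Enterocyte markers summed to 2445 to 3849 CPM in the organoids and 903 to 934 CPM in the ISCs, with 2 of 12 higher and 1 lower, and 3 of 6 goblet markers were lower; their part was not tested. Of the fatty acid genes 6 of 16 were higher and none lower, first by adjusted p Scd1 (log2 fold change 6.78 ± 0.73), Scd2 (2.48 ± 0.31) and Fads1, while 1 of 11 helper genes rose (Por), and of 18 sensing and transport genes 2 rose (Scarb1 and Soat1) and 1 fell (Nr1h2).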

How the data were processed

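The deposited values were raw gene counts per library, 1 table each, with a column for both strands and 1 for each strand. STAR (no version given), DESeq2 1.22.2 and the build mm10 are named per the submitters' processing notes; the annotation behind the counts is not given in the sources used here. The kit was non-directional, per the labels' protocols, although the duodenal counts lay on 1 strand. The column for both strands was used. The 4 summary lines (unmapped 2.58% to 57.0% of reads, multimapping, no feature, ambiguous) were kept out of library sizes and tests.

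Counts were fitted in R 4.3.3 with edgeR 4.0.16 (filterByExpr minimum count 10, TMM, quasi-likelihood test, Benjamini-Hochberg over all genes of a fit, threshold 0.05). The 6 organoid libraries (14208 genes) and 7 ISC libraries (14577 genes) were fitted separately, and comparisons across both used all 13 (15208 genes). The fits were also run on simulated counts that gave every gene of a fit the same spread. That run required only a small median error of the set fold changes. It does not give the rate of false calls in these data. Alternatives used DESeq2 1.42.0, limma 3.58.1, other scalings and filters, and each replicate left out. Figures and annotation used Python 3.11.15 and GENCODE vM21 on GRCm38. In each comparison full statistics were given for at most 10 of the 29 genes, those with the smallest adjusted p (12 for WT organoids against WT ileal ISCs), and up to 3 called genes per further list were named. The genes, lists and tests were chosen with earlier results of these data known. A chi-square test of the counts between replicates gave 18.9 to 1655 per degree of freedom, and none was treated as a duplicate.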

Additional observations from a re-analysis of the deposited data

Results flagged for a closer look

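For 7 of the 29 genes the Sec-Cre effect differed between organoids and ileal ISCs by the interaction test in edgeR. This lies below the share of all 15208 genes, 26.4%, in either direction. All 7 differences were negative, against 13% of all genes called negative. In the ileal ISC libraries labelled Sec-Cre, Axin2 went against that label. The difference in log2 fold change, organoids minus ileal ISCs, was -8.99 for Npc1l1, -4.52 for Soat2, -4.17 for Abcg5 and -3.58 for Abcg8. It was -2.02 for Sc5d, -1.66 for Msmo1 and -1.18 for Ebp. The call of Ebp was lost without Sec-Cre organoid replicate 2 (adjusted p = 0.0659), WT organoid replicate 2 (0.0531) or WT ileal ISC replicate 2 (0.0641), whereas the other 6 passed in all 13 fits that left out 1 library.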

How the results depend on the processing

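No call among the 29 genes reversed direction under any alternative. Under all 14 alternatives, 12 of 21 calls passed in Sec-Cre against WT organoids and 16 of 22 in ISC-Cre against WT organoids. Under all 16, 0 of 6 passed in Sec-Cre against WT ileal ISCs, 3 of 8 in duodenal against WT ileal ISCs and 5 of 7 in duodenal against Sec-Cre ileal ISCs. Under all 20, 1 of 12 passed in WT organoids against WT ileal ISCs and 6 of 7 in the interaction. Fitting all 13 libraries together gave 12 calls in Sec-Cre against WT organoids, 12 in Sec-Cre against WT ileal ISCs and 12 in duodenal against Sec-Cre ileal ISCs, where 21, 6 and 7 were reported; the share of all genes called was then 16.3%, 28.2% and 49.5%, so 12 of 29 lies below the share of all genes in the last. DESeq2 gave 11 calls in Sec-Cre against WT ileal ISCs (26% of all genes). Library weights in limma gave 13 calls in duodenal against WT ileal ISCs (50.6% of all genes) and 19 in WT organoids against WT ileal ISCs (9.26%). Leaving out 1 library at a time moved the number of calls in Sec-Cre and in duodenal against WT ileal ISCs. It also did so in WT organoids against WT ileal ISCs and in the interaction, and the share of all genes called moved too. The counts are not ranged here, because many of these fits left 1 library in a group. The cause of these shifts was not tested. Deviations of same-numbered replicates had correlations from -0.174 to 0.0961 between groups. Among the organoid groups, and between the ileal ISC groups, each replicate number gave the same value, so these values are not independent. Whether same-numbered replicates shared more than a number cannot be told from these correlations. With the replicate block, calls numbered 21 in Sec-Cre and 22 in ISC-Cre against WT organoids (28.5% and 33.2% of all genes). They numbered 0 in Sec-Cre against ISC-Cre organoids (0.0282%). There were 7 in Sec-Cre and 5 in duodenal against WT ileal ISCs (16.9% and 11.5%), and 14 in WT organoids against WT ileal ISCs (4.1%). Duodenal against Sec-Cre ileal ISCs had 8 of 29 (30.9%) and the interaction 7 of 29 (30.5%), both below the share of all genes. Depth limits Npc1l1 in Apc-null organoids, which rests on 30 to 62 reads per library, and Idi1 in Sec-Cre ileal ISC replicate 1, which rests on 6.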

Other observations

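The spread between replicates of the 29 genes differed by group. The ratio of highest to lowest level had a median of 1.10 in Sec-Cre organoids and 1.20 in WT ileal ISCs, but 1.67 in Sec-Cre ileal ISCs and 1.58 in duodenal ISCs. More than 2-fold apart were 10 genes in Sec-Cre ileal ISCs, led by Idi1 at 14.5-fold from 6 and 852 reads, and 8 in duodenal ISCs, led by Pmvk at 3.60-fold. The duodenal values span 3 libraries and the others 2, which by itself widens them, so they are not like measures. The same ratios were not counted over all genes.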
